A study of Mus musculus with 8 samples.

Results

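Iron enters most mouse cells as transferrin-bound iron, is freed and reduced in endosomes, and is then used, stored in ferritin or exported. The 9 genes described here cover that route: Trf, Tfrc, Steap3, Slc11a2, Fth1, Ftl1, Slc40a1, Aco1 and Ireb2. They were chosen by name, as every probe whose RefSeq accession joins to one of these symbols, which gave 15 of the 55681 probes and 9 of the 20660 named genes on the array. The choice was made with results of the comparison below already known, so the members' own differences are given as a description, without p-values. All 15 probes passed the filter on dim signal, for which 3 of the 8 arrays had to show the probe well above background.

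The arrays hold RNA of whole mouse morulae at embryonic day 3.0, the stage just before the blastocyst, from in vitro fertilised embryos cultured in KSOM medium. The P150KD embryos had been injected as zygotes with siRNA that targets P150. Chaf1a encodes this protein, the largest component of CAF-1, a chaperone that places histones on newly replicated DNA. The siControl embryos had been injected with control siRNA. There were 5 P150KD arrays and 3 siControl arrays, each from a pool of 10 embryos and 2 rounds of RNA amplification. The siRNA lowers Chaf1a RNA without deleting the gene. The labels do not say whether the pools were collected separately, so any p-value measures the spread between these arrays, whose number limits the precision. All levels are log2 signals with the array's 75th percentile set to 0, and a level can be compared between arrays but not between probes.

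Transferrin carries iron in plasma and its receptor takes it into the cell. In iron-poor cells the RNA-binding proteins encoded by Aco1 and Ireb2 attach to stem-loops called iron-responsive elements. Bound at the start of ferritin transcripts they block translation, and bound near the end of the transferrin receptor transcript they protect it from decay. Arrays measure RNA only, so neither ferritin protein nor the iron content of the embryos was measured.

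The labels were checked first on the siRNA target. Chaf1a read -1.47, 0.52, -0.48, -1.45 and -0.23 on P150KD arrays 1 to 5, against 2.40, 2.09 and 2.27 on the siControl arrays (log2 difference -2.88, SE 0.48, limma adjusted p = 0.0107). The defining markers of the early embryo were present: all 10 markers of the morula and early lineages, among them Pou5f1, Nanog and Cdx2, were well above background on all 8 arrays. Their summed signal, in units of the 75th percentile, was 320.2 to 376.3 on P150KD arrays and 533.3 to 551.4 on siControl arrays, and Sox2, Gata3 and Krt18 fell past the threshold. Here and below, such a sum is weighted to its brightest probes and does not measure the share of a cell type. Of 14613 genes tested with the brightest probe standing for the gene, 971 (6.64%) rose and 1528 (10.5%) fell at a limma adjusted p under 0.05. The median log2 difference of all genes was -0.24, and differences from that median are given beside the members' own. All 8 arrays lie on 1 slide, 1 column of which holds the siControl arrays and P150KD array 1 and the other P150KD arrays 2 to 5, so the value of P150KD array 1 against siControl is the comparison within a column.

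Among the 9 genes, the transferrin receptor gene Tfrc was 2.66-fold higher in P150KD morulae, and the ferritin genes Fth1 and Ftl1 were 1.24-fold and 1.37-fold lower. The regulator genes Aco1 and Ireb2 read lower on average and the transporter genes Slc11a2 and Slc40a1 higher, with groups that overlapped. By the brightest probe, 1 of the 9 was past the limma threshold, Tfrc, beside 17.1% of all genes, and the groups did not overlap for 3 of the 9 (Tfrc, Fth1 and Ftl1), beside 32.0% of all genes. Of these 3, Tfrc was higher, beside 10.2% of all genes, and both ferritin genes were lower, beside 21.8%. Of the 15 probes, 2 were past the threshold, the brightest of Tfrc and the dimmer of Trf, beside 13.9% of all tested probes. Nothing is read from these counts, since the comparison was in view when the genes were chosen. The members' median log2 difference was 0.27, with 5 positive and 4 negative; it was 0.09 without siControl array 3, and -0.02 over the members well above background on all 8 arrays. In whole embryos a change in the share of a cell type and a change in RNA per cell cannot be told apart.

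**Figure D1:**
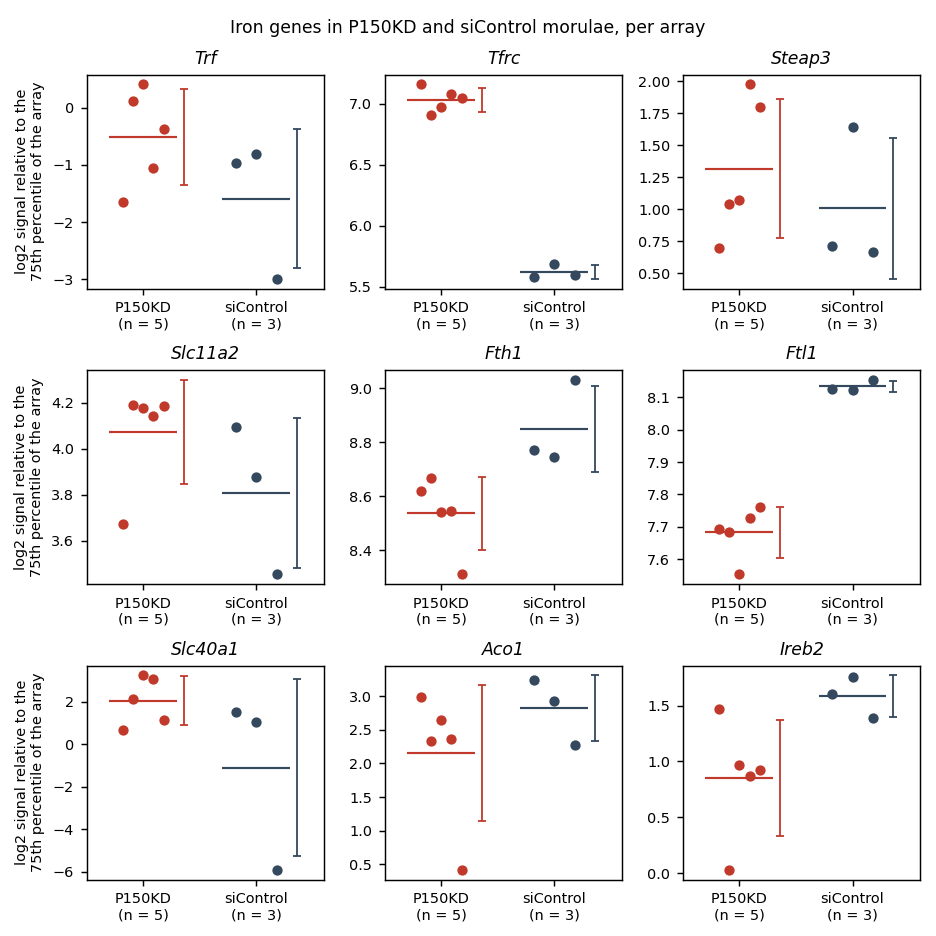
Log2 signal, with the array's 75th percentile set to 0, for the brightest probe of each of the 9 iron genes. Points are arrays (5 P150KD at the left of each panel, 3 siControl at the right), horizontal lines are means and bars are SD; only Tfrc, Fth1 and Ftl1 show groups that do not overlap, with Tfrc higher and both ferritin genes lower in P150KD, and with scaling to housekeeping genes both ferritin differences turn positive.

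Tfrc encodes the receptor that binds iron-loaded transferrin at the cell surface. Its brightest probe read 7.16, 6.90, 6.97, 7.08 and 7.05 on P150KD arrays 1 to 5, against 5.58, 5.68 and 5.60 on siControl arrays 1 to 3. Every P150KD array was more than 1 log2 unit above every siControl array, and both groups were tight. The means were 7.03 ± 0.10 (SD, n = 5) in P150KD and 5.62 ± 0.06 (SD, n = 3) in siControl, a log2 difference of 1.41 (SE 0.15), which is 1.65 above the median gene. Within the shared slide column the difference was 1.54. Leaving out each array in turn gave 1.38 to 1.44, and no scaling turned its sign.

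The other 2 Tfrc probes were dimmer and also read higher on average in P150KD. The second read 0.58, 0.25, 0.79, -0.11 and 0.35 in P150KD and -0.78, 0.06 and -0.64 in siControl (log2 difference 0.83, SE 0.28). The third read -2.01, -3.03, -1.78, -3.30 and -2.23 in P150KD and -4.28, -2.96 and -4.34 in siControl (log2 difference 1.39, SE 0.48). For both, siControl array 2 lay within the P150KD range and the other 2 siControl arrays below it. The files do not give the part of the transcript that a probe reads.

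The ferritin shell stores iron and is built from a heavy chain with ferroxidase activity, encoded by Fth1, and a light chain, encoded by Ftl1. Ftl1 read 7.69, 7.68, 7.55, 7.73 and 7.76 on the P150KD arrays and 8.13, 8.12 and 8.15 on the siControl arrays at its brighter probe. All P150KD arrays lay below all siControl arrays, with means of 7.68 ± 0.08 (SD, n = 5) in P150KD and 8.13 ± 0.02 (SD, n = 3) in siControl. The log2 difference was -0.45 (SE 0.14), or -0.21 from the median gene. The dimmer Ftl1 probe read 5.41, 5.46, 5.35, 5.67 and 6.0 in P150KD and 5.95, 6.17 and 6.17 in siControl (log2 difference -0.52, SE 0.20), where P150KD array 5 overlapped the siControl range.

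Fth1 has a single probe, which read 8.62, 8.67, 8.54, 8.54 and 8.31 on P150KD arrays and 8.77, 8.74 and 9.03 on siControl arrays. The groups did not overlap, but P150KD array 2 and siControl array 2 were nearly level. The log2 difference was -0.31 (SE 0.17), and only -0.07 from the median gene, so the heavy chain transcript sat where the typical gene of these embryos sat. Both ferritin differences turned positive and past the threshold when the arrays were scaled to 12 housekeeping genes (0.74 for Fth1 and 0.60 for Ftl1). That scaling moved the median of all genes to 0.81, above both. Ferritin genes have processed copies in the mouse genome, named for Ftl1 as Ftl1-ps1 and Ftl1-ps2, and their probes may share signal with such copies.

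The distance between 2 probes on the same array does not depend on a factor that scales the whole array. Background correction and quantile normalization can change such a distance. With normexp, for instance, Tfrc differed by 1.51 and Ftl1 by -0.46. Set to a mean of 0 in siControl, the distance between Tfrc and Ftl1 was 1.98, 1.74, 1.93, 1.86 and 1.8 on P150KD arrays 1 to 5, against -0.03, 0.07 and -0.04 on siControl arrays 1 to 3. It averaged 1.86 ± 0.10 (SD, n = 5) in P150KD with an SD of 0.06 in siControl (n = 3), a 3.63-fold shift of receptor over light chain transcript. The distance between Tfrc and Fth1 was 1.46 to 1.96 on P150KD arrays and -0.20 to 0.17 on siControl arrays. The distance between the 2 ferritin genes was -0.16 to 0.27 on P150KD arrays and -0.09 to 0.16 on siControl arrays, so heavy and light chain kept overlapping ratios.

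**Figure D2:**
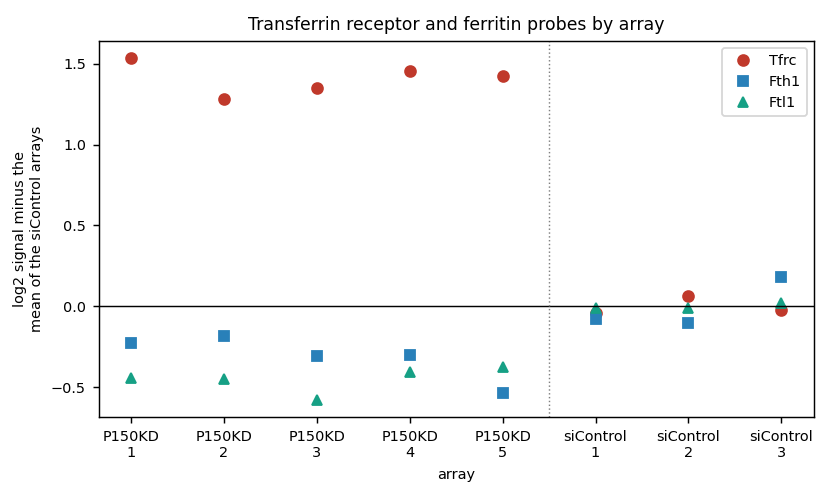
Log2 signal of the brightest Tfrc, Fth1 and Ftl1 probes on each array minus the mean of the 3 siControl arrays. The 5 P150KD arrays are at the left of the dotted line and the 3 siControl arrays at the right; Tfrc lies above 1 on every P150KD array while both ferritin probes lie below 0, and with scaling to housekeeping genes the ferritin means turn positive while the distance to Tfrc stays as drawn.

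The promoter windows of these 3 genes are shown because they are the members whose groups did not overlap. They are RefSeq windows of the build GRCm38.p6, from 250 bases before to 50 bases after the most downstream start site listed, and 6 of the 9 genes matched an entry. Tfrc is shown from chr16:32608872-32609171 on the plus strand, Fth1 from chr19:9982396-9982695 on the plus strand and Ftl1 from chr7:45459837-45460136 on the minus strand. Capitals mark the letters TATAA, the core of a TATA box, and ACGTG, the core letters of a hypoxia response element.
Tfrc: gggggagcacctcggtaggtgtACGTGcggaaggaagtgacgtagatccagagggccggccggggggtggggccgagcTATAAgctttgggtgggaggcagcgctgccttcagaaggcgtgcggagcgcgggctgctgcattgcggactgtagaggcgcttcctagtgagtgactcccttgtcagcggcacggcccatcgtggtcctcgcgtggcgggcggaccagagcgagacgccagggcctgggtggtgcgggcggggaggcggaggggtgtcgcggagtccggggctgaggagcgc
Fth1: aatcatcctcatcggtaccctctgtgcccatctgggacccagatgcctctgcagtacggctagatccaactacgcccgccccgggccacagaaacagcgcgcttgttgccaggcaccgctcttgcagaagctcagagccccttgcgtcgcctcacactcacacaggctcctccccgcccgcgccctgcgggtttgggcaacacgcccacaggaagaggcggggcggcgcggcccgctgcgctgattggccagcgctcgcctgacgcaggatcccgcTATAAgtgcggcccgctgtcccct
Ftl1: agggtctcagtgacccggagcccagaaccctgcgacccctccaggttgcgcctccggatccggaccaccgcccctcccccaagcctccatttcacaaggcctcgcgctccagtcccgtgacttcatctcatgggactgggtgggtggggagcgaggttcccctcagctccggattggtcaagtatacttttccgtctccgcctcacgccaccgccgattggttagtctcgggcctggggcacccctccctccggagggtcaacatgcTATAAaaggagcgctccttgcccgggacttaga
Both strands were searched for those letters, for the GC box GGGCGG and for the core of an antioxidant response element, spelled TGACNNNGC, and no match overlapped another. TATAA occurs once in each of the 3 windows, starting at base 79 of the Tfrc window, base 277 of the Fth1 window and base 268 of the Ftl1 window, and in none of the windows of Steap3, Aco1 and Ireb2. With 250 bases before the start site, the Tfrc match lies before that site and the Fth1 and Ftl1 matches after it. TATAA occurs in 24.9% of all 32851 RefSeq promoter windows of this length. ACGTG occurs at base 23 of the Tfrc window and in none of the other 5, against 19.6% of all windows, and GGGCGG in all but the Steap3 window, against 35.7%. TGACNNNGC was found in none of the 6, against 12.4% of all windows. A match of letters is a description, not a binding site.

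Trf encodes transferrin, the plasma carrier. Its brighter probe read -1.65, 0.11, 0.41, -1.05 and -0.37 in P150KD and -0.96, -0.81 and -2.99 in siControl. The groups overlapped, and siControl array 3 was the lowest of the 8. The log2 difference was 1.08 (SE 0.66), was 0.37 without siControl array 3, and was -0.06 within the shared slide column.

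The dimmer Trf probe read -2.51, -0.55, -1.29, -1.71 and -1.24 in P150KD and -7.05, -2.64 and -6.98 in siControl. It was well above background on all 5 P150KD arrays but only on siControl array 2, whose value was just below that of P150KD array 1. Its log2 difference of 4.10 (SE 1.03) therefore rests on 2 siControl arrays at background, and the 2 Trf probes differ in whether the groups overlap. Transferrin is also made by the visceral endoderm of later embryos. Of 10 extraembryonic endoderm markers, 7 could be tested, and Ttr was well above background on no array. Gata4 and Cubn rose past the limma threshold and the other 5 did not pass. Of the 7 differences, 5 were positive and 2 negative. The summed signal was 80.9 to 120.6 on P150KD arrays and 32.6 to 48.2 on siControl arrays. The part of this in the Trf values was not tested.

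Steap3 encodes the endosomal ferrireductase that reduces iron after its release from transferrin. Its brighter probe read 0.70, 1.04, 1.07, 1.97 and 1.79 in P150KD and 0.71, 1.64 and 0.67 in siControl (log2 difference 0.31, SE 0.38). The difference was -0.31 within the shared slide column and 0.14 to 0.63 when each array was left out, lowest without siControl array 3 and highest without siControl array 2. The dimmer probe read -2.12, -1.46, -0.21, 0.69 and -0.72 in P150KD and -0.90, -0.77 and -0.55 in siControl (log2 difference -0.02, SE 0.60). Groups overlapped at both probes, and at the dimmer one the P150KD arrays spanned more than the whole siControl range in both directions.

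Slc11a2 encodes the divalent metal transporter that passes reduced iron from the endosome into the cytosol. It read 3.67, 4.19, 4.18, 4.14 and 4.19 in P150KD and 4.10, 3.88 and 3.45 in siControl. P150KD arrays 2 to 5 were above all siControl arrays, while array 1 was below 2 of them. The log2 difference was 0.27 (SE 0.22), 0.09 without siControl array 3 and -0.14 within the shared slide column. The dimmer probe, between -3.96 and -2.51 in P150KD and between -3.67 and -3.11 in siControl, had a log2 difference of 0.27 (SE 0.40). Both Tfrc and some Slc11a2 transcripts carry iron-responsive elements near their end, and the distance between their probes on an array was 0.90 to 1.67 on P150KD arrays and -0.33 to 0.33 on siControl arrays.

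Slc40a1 encodes ferroportin, the iron exporter of the cell surface. It read 0.68, 2.13, 3.25, 3.09 and 1.15 in P150KD and 1.51, 1.07 and -5.93 in siControl. The signal on siControl array 3 was not well above background, and the other 2 siControl arrays lay within the P150KD range. The log2 difference of 3.17 (SE 1.69) was 0.77 without that array. The P150KD arrays were themselves spread widely at this probe, with array 3 highest and array 1 lowest.

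Aco1 and Ireb2 encode iron regulatory proteins 1 and 2, of which the first is the cytosolic aconitase when it holds an iron-sulfur cluster and the second is removed by proteolysis when iron is plentiful. Ireb2 read 1.47, 0.03, 0.97, 0.87 and 0.92 in P150KD and 1.61, 1.76 and 1.38 in siControl. P150KD arrays 2 to 5 were below all siControl arrays and array 1 lay among them (log2 difference -0.73, SE 0.32). The difference was -0.11 within the shared slide column and turned to 0.32 when scaled to the housekeeping genes. Aco1 read 2.99, 2.34, 2.65, 2.37 and 0.42 in P150KD and 3.24, 2.94 and 2.28 in siControl, with P150KD array 5 far below the rest. Its log2 difference of -0.67 (SE 0.58) was -0.23 without that array, 0.18 within the shared slide column and 0.38 when scaled to the housekeeping genes.

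**Figure D3:**
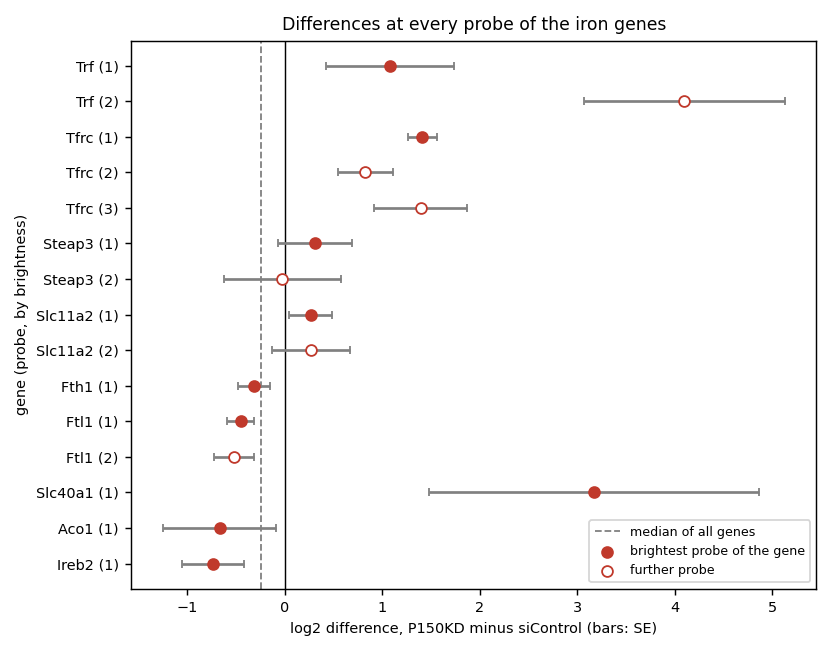
Log2 difference, P150KD (n = 5) minus siControl (n = 3), at each of the 15 probes of the 9 iron genes, with bars of 1 SE. Filled points are the brightest probe of a gene, the solid line is 0 and the dashed line is the median of all genes at -0.24; the 3 Tfrc probes lie at 0.83 to 1.41, the Fth1 and Ftl1 probes at -0.52 to -0.31, and with scaling to housekeeping genes the Fth1, Ftl1, Aco1 and Ireb2 brightest-probe differences turn positive.

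For the 3 members with groups that did not overlap, the genes with the most similar course over the 8 arrays were sought among 11289 genes measured on all arrays. For Tfrc they were Pmaip1 (Pearson r = 0.996), Zfp939 (r = 0.994) and Pou2af1 (r = 0.993). For Ftl1 they were Uhrf1 (r = 0.994), Tatdn3 (r = 0.991) and Gpi1 (r = 0.990), and for Fth1 Eif2s1 (r = 0.993), Hsp90aa1 (r = 0.992) and Rpl8 (r = 0.991). These values describe 8 arrays in 2 groups, so for Tfrc and Ftl1, with tight groups, they largely follow the difference between the groups. For Fth1 the spread within the groups (SD 0.14 in P150KD and 0.16 in siControl) also enters them. The similarity is in shape and need not be in size. On the log2 scale Zfp939 differed by 1.42, near the 1.41 of Tfrc, while Pmaip1 differed by 1.8 and Pou2af1 by 4.10. Hsp90aa1 differed by -0.31, as Fth1 did.

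A further 53 genes of iron and heme handling, listed by role from textbook knowledge, were read in the same limma fit to see what surrounds the 9 members. This list too was drawn up with earlier results of these data known, so its counts and median are a description only. Of the 42 that could be tested, 10 fell and 1 rose at a limma adjusted p under 0.05, beside 10.5% of all genes fallen and 6.64% risen. The groups with most falls were the mitochondrial iron-sulfur cluster group (3 of 11), the heme synthesis group (3 of 8) and the group of further transcripts with an iron-responsive element (2 of 3). The median log2 difference of the 42 was -0.44, beside -0.24 for all genes. None of the 11 calls kept an adjusted p under 0.05 when the slide column was fitted as a block, a fit that sets 1 P150KD array against the siControl arrays. For all 11 genes the P150KD and siControl arrays did not overlap, so the sign in that fit was fixed in advance and nothing is read from it. The differences there were -1.71 for Isca2, -1.82 for Hscb, -1.53 for Urod, -0.60 for Cpox and 5.45 for Ltf, whose siControl values lie at background. The number of falls was 4 without siControl array 1 or 2, 5 without siControl array 3 or P150KD array 4 or 5, 6 without P150KD array 1 or 3, and 1 when scaled to the housekeeping genes.

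Iron-sulfur clusters are built in mitochondria on a scaffold and passed to target proteins by carrier proteins. Isca2, a late-acting carrier, read 0.69, 0.51, 0.20, 0.21 and 0.69 in P150KD and 2.14, 2.29 and 2.77 in siControl, the groups being more than 1 log2 unit apart (log2 difference -1.94, SE 0.23, limma adjusted p = 0.0038). Hscb, the co-chaperone that helps release clusters from the scaffold, read 2.17, 2.88, 2.75, 2.05 and 2.31 in P150KD and 4.16, 3.76 and 4.05 in siControl (log2 difference -1.56, SE 0.25, limma adjusted p = 0.0095). Iscu, the scaffold itself, fell by 0.73 on the log2 scale (SE 0.17, limma adjusted p = 0.0303). The Iscu call was kept in only 1 of the 8 fits that left out an array, the one without P150KD array 3 (otherwise up to 0.115), was lost with quantile normalization (limma adjusted p = 0.0901), and the difference turned to 0.32 when scaled to the housekeeping genes. The cysteine desulfurase gene Nfs1 differed by -0.45 and its partner Lyrm4 by -0.48, with groups that did not overlap but adjusted p of 0.0939 and 0.113 in limma. Slc25a37, the mitochondrial iron importer mitoferrin 1, differed by -1.32 at its brighter probe and 2.08 at its dimmer one, so its probes disagreed in sign and neither passed. Of the 11 genes, 8 lay below the median gene.

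Heme synthesis starts and ends in the mitochondrion and its last step inserts iron. Urod, uroporphyrinogen decarboxylase, read 4.09, 4.15, 4.53, 3.96 and 3.81 in P150KD and 5.57, 5.40 and 5.91 in siControl, with no overlap (log2 difference -1.52, SE 0.22, limma adjusted p = 0.0072). Alad, which forms porphobilinogen, fell by 1.04 (SE 0.22, limma adjusted p = 0.0212) and Cpox, coproporphyrinogen oxidase, by 0.98 (SE 0.25, limma adjusted p = 0.0422) on the log2 scale. Fech, which inserts the iron, differed by -0.70 (SE 0.26) and did not pass (limma adjusted p = 0.122), and the entry enzyme gene Alas1 differed by -0.25 (limma adjusted p = 0.403). Scaled to the housekeeping genes the Urod difference was -0.47, while Alad and Cpox lay at 0.01 and 0.07. The Alad call was lost without siControl array 1 or 2 (limma adjusted p up to 0.0722), and the Cpox call was kept in only 1 of the 8 fits that left out an array, the one without P150KD array 1 (otherwise up to 0.143). Of 9 markers of erythroid cells, the main heme producers of the body, the globin gene Hba-a1 rose past the limma threshold and 4, among them Hbb-bt, Hbb-bs and Tal1, were well above background on no array. Their summed signal was 39.6 to 61.2 on P150KD arrays and 36.3 to 50.3 on siControl arrays.

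Epas1, the hypoxia-inducible factor 2 alpha gene, whose transcript carries an iron-responsive element at its start, fell by 0.67 (SE 0.17, limma adjusted p = 0.0395) at its brightest probe, while its dimmer probes differed by -0.83 and -0.04 and did not pass. The Epas1 call was lost whichever array was left out (limma adjusted p 0.0571 to 0.115) and with quantile normalization (0.192), and the difference was 0.38 when scaled to the housekeeping genes.

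Ferritin is handed to lysosomes by the cargo receptor encoded by Ncoa4, which read 4.52 to 4.91 in P150KD and 5.20 to 5.53 in siControl and fell by 0.67 on the log2 scale (SE 0.17, limma adjusted p = 0.0421), a difference that turned to 0.38 when scaled to the housekeeping genes. That call was kept in only 1 of the 8 fits that left out an array, the one without P150KD array 2 (otherwise up to 0.122). Pcbp1, a chaperone that delivers iron to ferritin, differed by -0.18 (SE 0.17, limma adjusted p = 0.509). Fbxl5, the adaptor that marks Ireb2 protein for degradation, differed by -0.26 (SE 0.36, limma adjusted p = 0.662).

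Of the 8 other genes of uptake and reduction tested, 1 rose, 1 fell and 6 did not pass. Slc39a14, a zinc transporter that also admits iron not bound to transferrin, fell by 1.08 (SE 0.26, limma adjusted p = 0.035). That call was kept in only 1 of the 8 fits that left out an array, the one without P150KD array 2 (otherwise up to 0.113), was lost with quantile normalization (limma adjusted p = 0.0746), and the difference was -0.03 when scaled to the housekeeping genes. Ltf, which encodes the iron-binding secreted protein lactoferrin, was the 1 gene that rose, with -1.47, -1.02, -2.81, -0.68 and -3.83 in P150KD and -6.45, -7.09 and -7.21 in siControl. It was well above background on all 5 P150KD arrays and on no siControl array, so it passed the filter only through the group where it was high. Its rise is a nominal bound of at least 20.7-fold, set against the dimmest probe that each siControl array still measured above its background. The siControl values lie at background, where their spread is not that of a measured RNA. Nothing is therefore read from the limma adjusted p of Ltf (0.0075). With normexp background correction and its offset the log2 difference was only 2.08 (limma adjusted p = 0.0402), a smaller ratio than that bound. Lactoferrin is also a product of neutrophils. Of 9 leukocyte markers with a probe, 0 of the 6 tested passed in limma (1 had an unadjusted p under 0.05), Ptprc, Lyz2 and Tyrobp were well above background on no array, and the summed signal was 4.56 to 6.45 on P150KD arrays and 4.15 to 16.2 on siControl arrays. Tfr2, the second transferrin receptor gene, read -0.89, -5.59, -0.18, 0.46 and 0.64 in P150KD and -0.24, -0.01 and -0.39 in siControl; its log2 difference of -0.90 (SE 1.38, limma adjusted p = 0.696) was 0.22 without P150KD array 2.

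The heme oxygenase genes, whose products free iron from heme, did not pass with all arrays at equal weight. Hmox1 differed by -1.12 (SE 0.37, limma adjusted p = 0.0846) at its brighter probe. That probe passed with array weights (-1.28, limma adjusted p = 0.029). It also passed in 1 of the 8 fits that left out an array, the one without P150KD array 2 (-1.34, limma adjusted p = 0.0331). The dimmer Hmox1 probe differed by only -0.26 (SE 0.24, limma adjusted p = 0.504). Hmox2 differed by -0.49 (SE 0.24, limma adjusted p = 0.211) at its brighter probe and by -0.11 (SE 0.29, limma adjusted p = 0.825) at its dimmer one. Hamp and Hamp2, which encode the liver hormone hepcidin in mice, its regulator gene Hjv, the ferroxidase genes Cp, Heph and Hephl1, the mitochondrial ferritin gene Ftmt, the reductase gene Cybrd1, Steap4, Slc39a8 and the erythroid gene Alas2 were too dim to be tested.

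**Figure D4:**
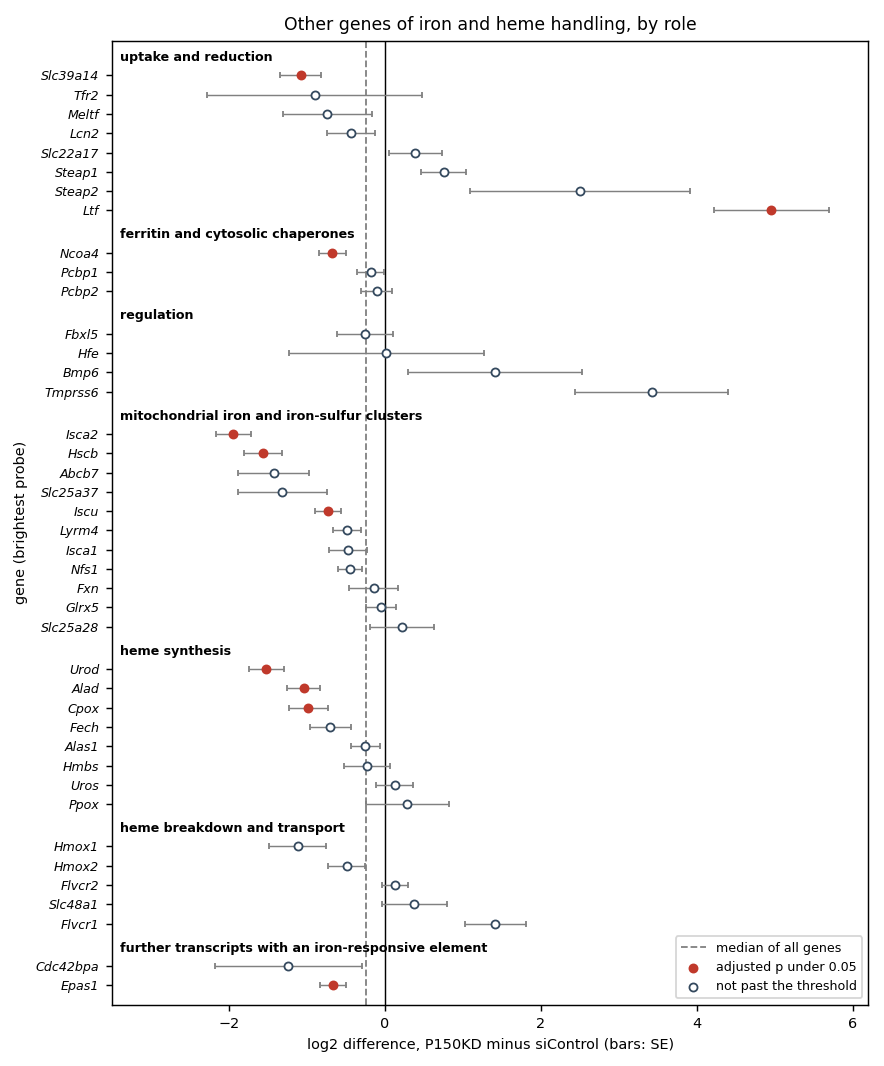
Log2 difference, P150KD (n = 5) minus siControl (n = 3), for 41 of the 42 tested genes of iron and heme handling outside the 9 members, grouped by role, with bars of 1 SE. Filled points had a limma adjusted p under 0.05; the 9 filled points at the left lie between -1.94 and -0.67 and the one at the right is Ltf, and with scaling to housekeeping genes the Alad, Cpox, Iscu, Epas1 and Ncoa4 differences turn positive.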

How the data were processed

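Per the submitters' processing notes the scans were read with Agilent Feature Extraction 10.5.1; per the file headers the processed signal is a one-colour intensity, background-subtracted and spatially detrended by the authors, not normalized between arrays, and the scanner software's flags are coded 0 or 1. The authors also deposited a log2 table centred per probe. Here, spots of a probe were averaged without flagged outliers where others remained, and log2 signals were set relative to each array's 75th percentile. Between 49.2% and 55.1% of probes were well above background; no spot was saturated. Probes well above background on at least 3 of 8 arrays (30363) were tested with limma 3.58.1 in R 4.3.3, two-sided, with Benjamini-Hochberg adjustment over all of them and a threshold of 0.05; 4231 (13.9%) passed. Symbols came from joining RefSeq accessions to the RefSeq table (27235 probes; 28446 stayed unnamed), and the brightest tested probe stood for its gene. The fit was tested on simulated data. The members and lists were chosen with earlier results of these data known. The rule for naming took all members, Chaf1a, every other iron or heme gene past the threshold, 10 fixed ones, and up to 3 genes of most similar course; 1 other iron gene past the threshold and 1 erythroid marker enter the counts but are not reported here. Alternatives were normexp (offset 50), quantile, median and housekeeping scaling, the series table, 2 filters, blocks for replicate number and slide column, eBayes with trend and robust, array weights (statmod 1.5.0), the mean of a gene's probes and leaving out each array. The deviations of same-numbered arrays correlated at -0.01, -0.07 and -0.02, so they showed no common course. These values cannot show whether same-numbered pools were collected together. Tables used Python 3.11.15, pandas 2.3.3 and numpy 2.4.6.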

Additional observations from a re-analysis of the deposited data

Results flagged for a closer look

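Among 34 sets of 5 P150KD arrays examined, 3 single arrays stood apart from the other 4, where chance alone flags about 1 set in 20. Slc11a2 read 3.67 on P150KD array 1, against 4.14 to 4.19 on the other P150KD arrays. Aco1 read 0.42 on P150KD array 5, against 2.34 to 2.99 on the others. Tfr2 read -5.59 on P150KD array 2, where its probe was not well above background, against -0.89 to 0.64 on the others. The siControl group of 3 arrays is too small for this check.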

How the results depend on the processing

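The alternatives refit the same arrays, and the members were chosen with this comparison in view, so the members' calls are a description only. Tfrc kept its direction under every alternative and was past the threshold under all but the replicate block. Ftl1 joined it, so that 1 member was lower, with only probes well above background on all 8 arrays, with eBayes trend and robust, and with array weights. Scaled to the housekeeping list, 6 members were called higher, namely Trf, Tfrc, Steap3, Slc11a2 and both ferritin genes, Fth1 and Ftl1. The ferritin calls were thus opposite in direction to their main differences. With this scaling 15 other iron and heme genes and 5710 of all genes were higher, and 1 other iron and heme gene and 175 of all genes were lower. The medians were 1.31 for the members and 0.81 for all genes. Under that scaling Alad lay at 0.0064, Iscu at 0.32, Epas1 at 0.38, Ncoa4 at 0.38 and Cpox at 0.0677. These differences turned positive, but none was past the threshold and all lay below the median of all genes. Pcbp1 also turned positive, to 0.87, and was past the threshold (limma adjusted p = 0.0062). The cause was not tested. With the replicate number as a block, which leaves 2 residual degrees of freedom, 0 members, 0 other genes in either direction and 0 of all genes were called (6374 probes had an unadjusted p under 0.05), and Chaf1a differed by -2.73. The labels do not say whether same-numbered arrays belong together, and their deviations showed no common course. This fit therefore cannot decide whether the calls depend on a pairing. With the slide column as a block, 0 other genes were called in either direction (Isca2 -1.71, Hscb -1.82, Urod -1.53, Ltf 5.45). The signs of the 11 differences were fixed in advance there, since the groups of these genes did not overlap. In the same fit 207 of all genes were higher and 203 lower, Chaf1a differed by -3.72, and the members' median was -0.11. Other iron and heme genes called higher were 3 with normexp, with eBayes trend and robust, with array weights and with the mean of all probes. Those called lower were 5 with quantile normalization or median scaling and 6 without a filter. Of all genes, 947 were lower with quantile normalization and 1010 with median scaling. Leaving out each array in turn gave 1 to 2 other genes higher and 4 to 8 lower, and of all genes 535 to 908 higher and 466 to 1315 lower. The dim siControl signals of Trf and Slc40a1 limit what can be said of their size.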
